A study of Mus musculus with 4 samples.

Results

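The 7 genes described here mark the wall of blood vessels in fat. Pecam1, Flt1 and Eng are genes of endothelial cells, which line the vessels. Pdgfrb and Cspg4 are genes of pericytes, the mural cells that wrap capillaries, and Cnn1 and Lmod1 are genes of contractile smooth muscle cells of larger vessels. They were chosen by name among the 11993 genes of the deposited gene table, where each had 1 row. Together they were linked to 9 of the 10979 gene-linked open regions.

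Open chromatin was mapped by ATAC-seq, which uses the transposase Tn5 to cut and tag accessible DNA, in nuclei of frozen subcutaneous white adipose tissue of wild-type mice. There were 2 libraries from females (female 1 and female 2) and 2 from males (male 1 and male 2), all untreated as far as the labels say, with no age or strain given. Whether the 2 libraries of a sex are separate animals is not stated by the labels. The p-values therefore reflect only the spread between these libraries, which may be technical. The tissue holds many cell types, and fewer vascular cells cannot be told apart from less open DNA per cell.

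Endothelial cells respond to VEGF, which binds the receptor tyrosine kinases encoded by Kdr and by Flt1, the latter acting largely as a decoy that limits the signal. Endoglin, the product of Eng, is a co-receptor for BMP and TGF-beta ligands, and PECAM1 (CD31) is an adhesion protein at endothelial junctions. Endothelial PDGF-B recruits mural cells through the receptor encoded by Pdgfrb, while Cspg4 encodes the NG2 proteoglycan on the pericyte surface. Cnn1 (calponin) and Lmod1 (leiomodin) encode proteins of the actin filaments of smooth muscle, whose genes are controlled by SRF and myocardin.

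Open DNA at these genes lay mostly away from their starts. Of the 7 genes, 1 (Pdgfrb) had a region within 1000 bp of its start, against 69.7% of all genes in the table. RefSeq promoter windows of 300 bases (250 before the start and 50 after it, GRCm38.p6) were at hand for 5 of the genes, and no peak of any library overlapped those of Flt1, Eng, Cspg4, Cnn1 or Lmod1. Of all 32851 windows, 23.6% overlapped a merged region. The 100 bases before each of these RefSeq starts are shown because no opening was called there. They are written 5′ to 3′ on the strand of the gene, with capitals for the ETS core GGAAG (the core bound by ETS factors of endothelium) and the GC box GGGCGG, each searched on both strands.
Flt1, chr5:147726012-147726111, minus strand: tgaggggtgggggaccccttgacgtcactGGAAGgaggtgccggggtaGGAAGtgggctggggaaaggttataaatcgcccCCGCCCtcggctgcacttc
Eng, chr2:32646495-32646594, plus strand: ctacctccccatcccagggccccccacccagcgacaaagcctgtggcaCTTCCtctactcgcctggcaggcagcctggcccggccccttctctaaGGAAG
Cspg4, chr9:56865004-56865103, plus strand: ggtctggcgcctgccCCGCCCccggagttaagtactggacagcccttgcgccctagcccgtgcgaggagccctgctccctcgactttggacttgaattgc
Cnn1, chr9:22099153-22099252, plus strand: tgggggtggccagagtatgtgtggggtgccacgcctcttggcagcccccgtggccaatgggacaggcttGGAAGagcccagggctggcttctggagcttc
Lmod1, chr1:135324713-135324812, plus strand: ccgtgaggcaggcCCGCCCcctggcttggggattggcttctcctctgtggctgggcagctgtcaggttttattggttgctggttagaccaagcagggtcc

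The ETS core was present before the starts of Flt1 (2 matches), Eng (2 matches) and Cnn1 (1 match), and in 35.7% of all windows of these 100 bases. The GC box was present before the starts of Flt1, Cspg4 and Lmod1, and in 24.7% of all such windows. The CArG box, the SRF motif of CC, 6 bases of A or T, and GG, was not found in the 300-base windows of the 5 genes, nor was the AP-1 motif TGACTCA. They were present in 1.63% and 5.20% of all 300-base windows. These matches describe letters in the windows and are not binding sites.

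**Figure D1:**
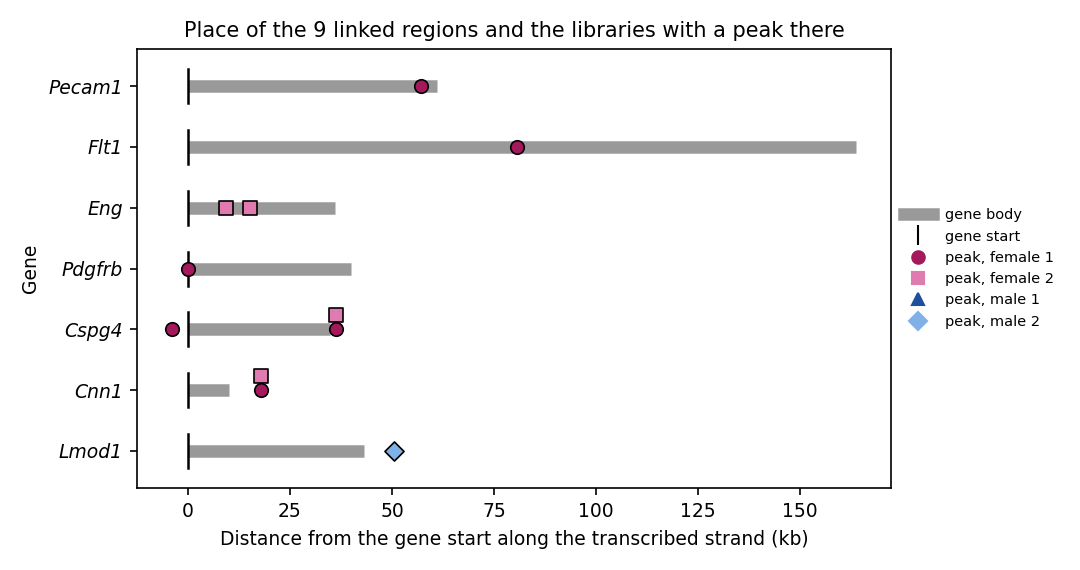
Distance of each linked region from the start of its gene in kb along the transcribed strand (x axis) for the 7 genes (y axis); grey bars are gene bodies and symbols mark the libraries with a called peak. The region of Pdgfrb lies at the start, those of Pecam1, Flt1 and Eng lie inside the genes, and those of Cnn1 and Lmod1 lie beyond the 3′ ends.

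The values are peak heights, the number of overlapping tags at the highest point of a region, scaled by the authors by a factor per library. For genes with several regions the table gives the mean over them. No read totals were at hand, and the depth behind a height is unknown. The heights of 1-region genes were whole multiples of a step per library, 1.0 and 0.822 for the females and 0.707 and 0.734 for the males (within 2% of a step). A height divided by its step is thus the number of overlapping tags before scaling. Mean heights over all genes were 40.9 and 32.5 in the females and 25.3 and 16.8 in the males, in the order of their numbers, which is kept below. Called intervals of male 2 had a median width of 284 bp against 160 to 171 bp in the other libraries.

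Sexes were compared by limma on log2(height + 9), fitted over all genes with Benjamini-Hochberg adjustment, as male minus female. None of the 7 genes passed an adjusted p of 0.05 in either direction. Over all genes 0.592% were called lower in males and 0% higher. Without male 1 the log2 difference was -1.09 for Eng, -1.05 for Pdgfrb, -1.14 for Cspg4 and -0.84 for Cnn1. It was -0.72 for Pecam1, -0.48 for Flt1 and 0.080 for Lmod1, beside a median of -0.86 over all genes. Without male 2 the 7 differences ran from -1.015 for Pdgfrb to -0.18 for Cnn1, beside a median of -0.40. At an unadjusted p under 0.05 in the main fit, 3 of the 7 genes were lower in males (Eng, Pdgfrb and Cspg4), as were 3768 of all 11993 genes. The median log2 difference of all genes was -0.63, so each difference is also given relative to it. In 5 of the 7 genes both males lay below both females, and 76.4% of all genes had that order. No member had both males above both females (0.35% of all genes). Regions entered through a called peak, at Lmod1 in male 2 only and at the other members in females only. The p-values and orders of the members are thus not independent of how regions were chosen. With 2 libraries a sex, 0.33 is the smallest two-sided p of an exact permutation test.

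**Figure D2:**
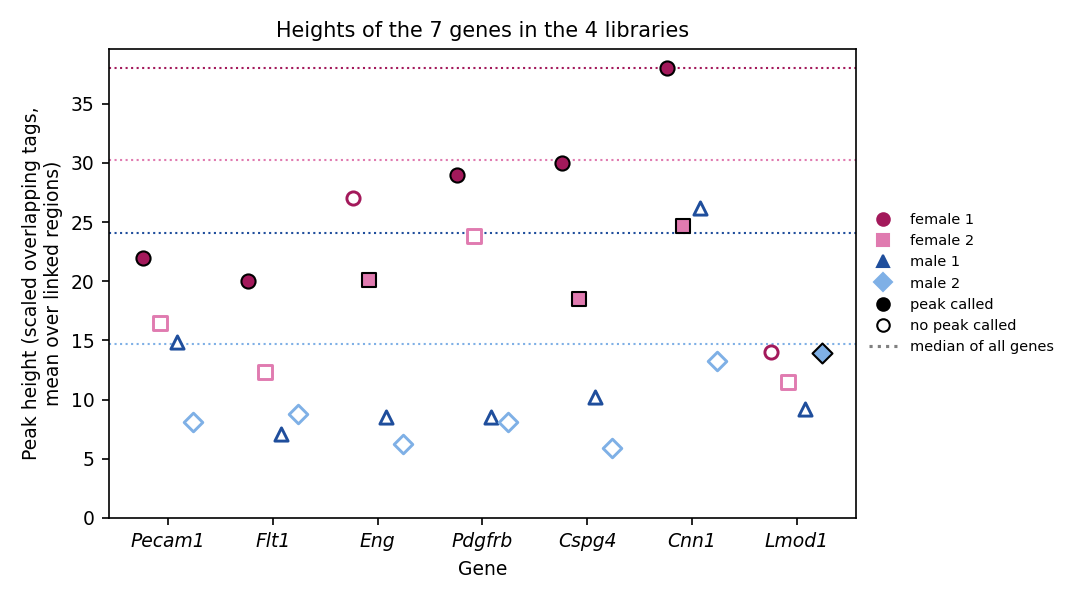
Peak height in scaled overlapping tags, averaged over linked regions (y axis), of each gene (x axis) in the 4 libraries; filled symbols have a called peak, open symbols have none, and dotted lines are each library's median over all genes. Female 1 is highest in each of the 7 genes, and a male library has a called peak only at Lmod1.

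Pecam1 (GeneID 18613, chromosome 11, 106654218 to 106715281, mm10, minus strand) had 1 region of 90 bp, at chr11:106658184-106658273. It lay inside the gene, 57009 bp from the start and near the 3′ end, and was linked to no other gene. Heights were 22.0 and 16.4 in females and 14.8 and 8.08 in males. Both females were above both males, but male 1 lay 1.60 below female 2, a gap smaller than the difference between the females. In tags before scaling the values were 22, 20, 21 and 11, where male 1 and female 2 change places. Females averaged 19.2 ± 3.93 and males 11.5 ± 4.78 (SD, n = 2 libraries per sex). The log2 difference was -0.48 (SE 0.35, limma adjusted p = 0.271), which is 0.15 relative to all genes. A peak was called in female 1 only.

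Flt1 (GeneID 14254, chromosome 5, 147562196 to 147725988, minus strand) had 1 region of 121 bp at chr5:147645403-147645523, inside the gene and 80548 bp from the start. It was also the only merged region within 100 kb of the gene. Heights were 20.0 and 12.3 in females and 7.07 and 8.81 in males, or 20, 15, 10 and 12 tags. The females lay above the males on both scales, with a wider gap between the females than between the sexes. The log2 difference was -0.56 (SE 0.34, limma adjusted p = 0.207), 0.07 relative to all genes. Female 1 alone had a called peak.

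Eng (GeneID 13805, chromosome 2, 32646595 to 32682669, plus strand) had 2 regions inside the gene. The first, of 166 bp at chr2:32655902-32656067, lay 9437 bp from the start, and the second, of 219 bp at chr2:32661850-32662068, lay 15293 bp from it. Peaks were called at both in female 2 only, with summits of 21.4 and 18.9. The mean height over the regions was nonetheless higher in female 1, at 27.0, than in female 2, at 20.1, and was 8.48 in male 1 and 6.24 in male 2. The males lay well below both females, by 11.7 at the closest. The log2 difference was -0.99 (SE 0.35, limma adjusted p = 0.0992), -0.36 relative to all genes, and 8.9% of all genes had a lower one. The microRNA gene Mir1954, which lies within Eng, was linked to the same regions and so carries the same values, which is why the heights of the single regions could not be separated.

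Pdgfrb (GeneID 18596, chromosome 18, 61045150 to 61085067, plus strand) was the 1 member with a region over its own start, 108 bp at 61045063 to 61045170. The region was linked also to Cdx1, an intestinal homeobox gene on the other strand, from whose start it lay at -8889 bp (upstream). Heights were 29.0 in female 1 and 23.8 in female 2, against 8.48 in male 1 and 8.08 in male 2. Each sex was thus tightly grouped, and before scaling both females had 29 tags and the males 12 and 11. The means were 26.4 ± 3.65 in females and 8.28 ± 0.286 in males (SD). The log2 difference was -1.03 (SE 0.36, limma adjusted p = 0.0982), which is -0.40 relative to all genes. A peak was called in female 1 and not in female 2, although the tags were equal.

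Cspg4 (GeneID 121021, chromosome 9, 56865104 to 56899870, plus strand) had mean heights of 30 and 18.5 in females and 10.3 and 5.87 in males. Both females were above both males, and the log2 difference was -0.95 (SE 0.35, limma adjusted p = 0.108), which is -0.32 relative to all genes. This mean joins 2 regions with different patterns. The upstream region, of 95 bp at chr9:56861110-56861204, lay at -3984 bp from the start and was shared with Odf3l1, a gene of the outer dense fibre family. The deposited table puts it at -9157 bp from Odf3l1. It lay 600 to 694 bp beyond the RefSeq extent of that gene, on the 5′ side, but 7296 bp or more from the Odf3l1 starts of the promoter windows. By extent it was thus nearer to Odf3l1 than to Cspg4, and by those starts it was farther from Odf3l1. From the row of Odf3l1, which had this region alone, the heights of the region were 26.0 and 14.8 in females and 15.6 and 7.34 in males. The sexes overlapped there.

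The downstream region of Cspg4, of 168 bp at chr9:56901294-56901461, lay just past the 3′ end of the gene and was linked to no other gene. Subtracting the upstream region from the gene's mean left 34.0 and 22.2 for the females but 4.95 and 4.41 for the males, or 34, 27, 7 and 6 tags. Both females had a called peak there, and their subtracted heights equalled the deposited summits within 0.01. This was the widest gap between the sexes among the 7 member regions with a height of their own. In a limma fit with 1 row per region, added after these values were seen, 6785 regions had a height of their own. Of these, 0.766% were called lower in males, and 71.8% had both males below both females. The downstream region of Cspg4 was among those called, with means of 28.1 ± 8.35 in females and 4.68 ± 0.385 in males (SD). Its log2 difference was -1.42 (SE 0.37, limma adjusted p = 0.0333), which is -0.79 relative to all regions. Regions entered through a called peak, and this one had peaks in both females and neither male. Its adjusted p is thus not independent of how regions were chosen. Of gene-linked regions, 92.7% had a peak in a female library and 57.0% in a male one. In the same fit the upstream region had a log2 difference of -0.53 (limma adjusted p = 0.276), and no other member region passed. The call on the downstream region was lost with libraries centred on their medians (log2 difference -0.81, limma adjusted p = 0.589) and on unscaled tags (log2 difference -1.35, limma adjusted p = 0.135), where the difference was about as large as in the scaled heights. It was also lost without female 1 (limma adjusted p = 0.585), female 2 (0.0611) or male 2 (0.334), with differences of -1.65 to -1.19 over the 4 fits that leave out a library.

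The gene of calponin was measured through a neighbour's start. Cnn1 (GeneID 12797, chromosome 9, 22099253 to 22109221, plus strand) had 1 region of 168 bp at chr9:22117125-22117292, which lay 17931 bp downstream of its start and past its 3′ end. The same region was linked to Elof1, a transcription elongation factor gene, and to Acp5, the tartrate-resistant acid phosphatase of macrophages and osteoclasts. The deposited table puts it at -3015 bp from Elof1, but the RefSeq start of Elof1, at 22117195, falls inside it. The part of the region before that start is shown, on the strand of Elof1, with a GC box in capitals. That box occurs in 24.3% of all windows of the same 97 bases.
Elof1, chr9:22117196-22117292, minus strand: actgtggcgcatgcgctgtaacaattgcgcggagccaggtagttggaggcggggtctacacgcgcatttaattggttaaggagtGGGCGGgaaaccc

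Heights at this region were 38.0 and 24.7 in females and 26.2 and 13.2 in males, or 38, 30, 37 and 18 tags. Male 1 lay above female 2, so the sexes overlapped, while peaks were called in the females only. It was the highest of the member values in each library but male 2, where Lmod1 was higher. The log2 difference was -0.51 (SE 0.38, limma adjusted p = 0.274), or 0.12 relative to all genes.

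Lmod1 (GeneID 93689, chromosome 1, 135324813 to 135368065, plus strand) likewise took its value from a region near another gene. The region, of 223 bp at chr1:135375218-135375440, lay 50483 bp from the start of Lmod1 and past its 3′ end, but at -233 bp from the start of Shisa4 in the deposited table. It was linked also to Ipo9, an importin gene. The RefSeq gene Shisa4, which encodes a membrane protein, reaches 135375298 and so into the region. The 30 bases around the summit at 135375296 are shown on the strand of Shisa4, and none of the 4 motifs was found in the 96 bases that the region shares with the Shisa4 window.
Shisa4, chr1:135375282-135375311, minus strand: tgccaggcctccctgaccgcagtgaccagc

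Heights at this region were 14.0 and 11.5 in females and 9.19 and 14.0 in males, or 14, 14, 13 and 19 tags. The sexes overlapped, and male 2, the library with the lowest mean over all genes, had the only called peak. Its log2 difference was -0.09 (SE 0.35, limma adjusted p = 0.828), and 94.8% of all genes had a lower one. Relative to all genes Lmod1 lay at 0.54, the only member more than 0.2 above the median.

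**Figure D3:**
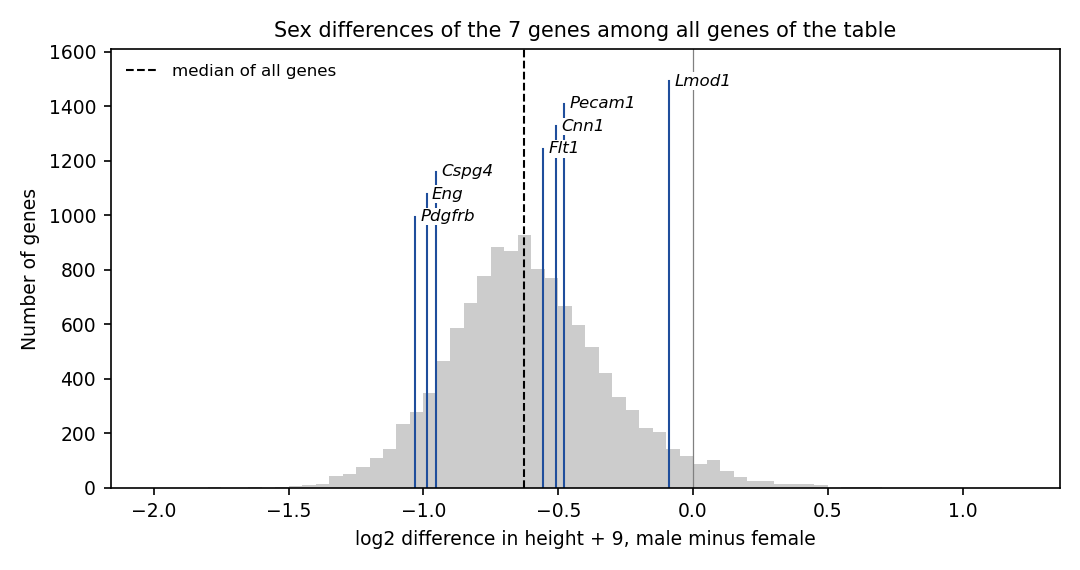
Number of genes (y axis) by log2 difference in height + 9, male minus female (x axis), for all 11993 genes, with blue lines at the 7 members and a dashed line at the median of -0.63. Pdgfrb, Eng and Cspg4 lie between -1.03 and -0.95, Flt1, Cnn1 and Pecam1 between -0.56 and -0.48, and Lmod1 at -0.09.

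The 7 genes fell on either side of the median shift of all genes. Eng, Pdgfrb and Cspg4 lay 0.32 to 0.40 below the median of all genes. Pecam1, Flt1, Cnn1 and Lmod1 lay 0.07 to 0.54 above it, where the values of Cnn1 and Lmod1 are those of the regions at Elof1 and Shisa4. The side of Flt1 depended on the pseudocount. With a pseudocount of 1 its difference was -0.91, below the median of -0.84 over all genes. The other smooth muscle markers with a row, Myh11 and Smtn, lay at -0.18 and -0.03 relative to all genes. With libraries centred on their medians, both males were below both females for Eng, Pdgfrb and Cspg4 and above both for Pecam1 and Lmod1, orders that 21.7% and 18% of all genes had. On that scale none of the 7 passed (limma adjusted p from 0.642 to 0.964).

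Most members ranked in the lower part of each library. In female 1 the share of genes with a lower height ran from 2.7% for Lmod1 to 48.7% for Cnn1, and 6 of the 7 genes lay below 30%. Cnn1 stood at 32.0% in female 2, 56.7% in male 1 and 40% in male 2, and so above the median gene in male 1. The rank of Pecam1 was alike in all libraries, between 10.2% and 15.4%. That of Pdgfrb was 25.9% and 29.3% in females but 3.7% and 12.9% in males. Lmod1 stood at 2.7%, 3.3% and 4.5% in female 1, female 2 and male 1 and at 43.9% in male 2.

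**Figure D4:**
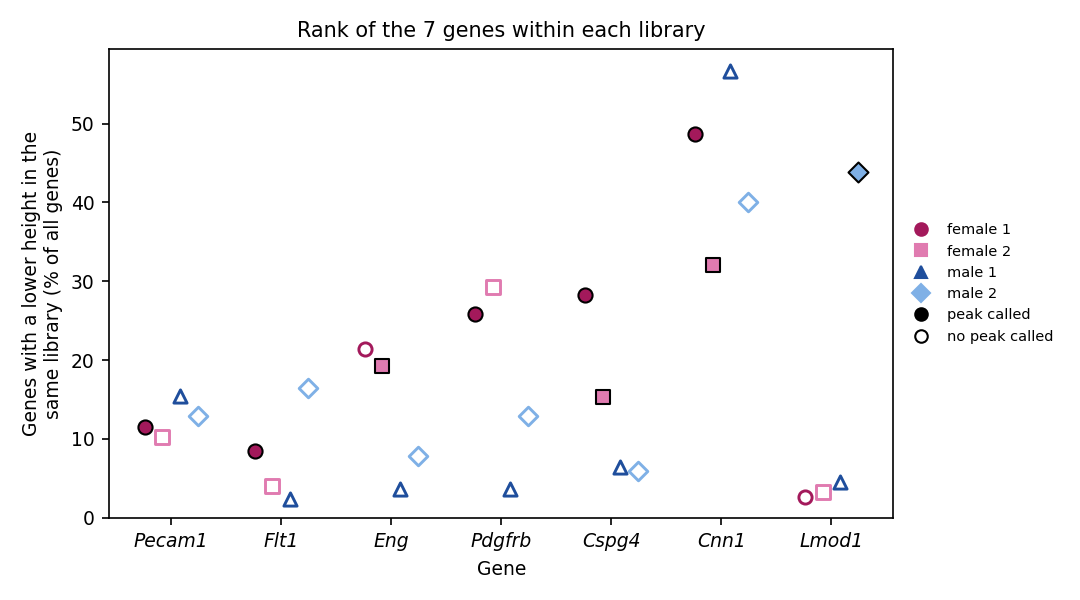
Share of all genes with a lower height in the same library, in percent (y axis), for each gene (x axis) and library; filled symbols have a called peak and open symbols have none. Lmod1 lies under 5% in 3 libraries and at 43.9% in male 2, while Pdgfrb, Cspg4 and Eng rank higher in both females than in both males.

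Called peaks at the members were few and often in a single library. Of 36 pairs of region and library 11 had a peak, and 7 of the 9 regions had a peak in 1 library, against 37.1% of gene-linked regions. The 2 regions with a peak in both females and neither male were those of Cnn1 and the downstream one of Cspg4 (12.8% of gene-linked regions). A male library had a peak at 1 of the 9 regions, against 57.0% of gene-linked regions, and none of the 9 had a peak in all 4 libraries (21.9%). These shares cover regions of all heights and were not matched to the members. In all, 10238 and 8022 intervals were called in the females and 5484 and 4049 in the males. The summits at the members were mostly small for their library: those of Flt1 and Pecam1 had 5.6% and 9.3% of the summits of female 1 below them, and that of Cnn1 had 48.1%.

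Calls and heights did not always rank libraries alike. In Eng (female 1), Cnn1 (male 1) and Lmod1 (female 1), a library without a call had a greater height than a library with one. The gap was 27.0 against 20.1 in Eng, 26.2 against 24.7 in Cnn1, and under 0.1 in Lmod1. The same was found in 28.2% of the 7685 genes with both called and uncalled libraries.

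Other genes of the same cells were compared from lists whose members were chosen with earlier results of these data known. Of 35 endothelial genes, 18 had a row in the table, and none was called in either direction (limma, adjusted over all genes). Their median difference was 0.05 above that of all genes, 14 of the 18 had both males below both females (76.4% of all genes), and 6 of the 18 had a region within 1000 bp of their start (69.7% of all genes). Relative to all genes they ran from -0.39 for Sox18 to 0.42 for Thbd. Sox18, an endothelial transcription factor gene, had heights of 57.0 and 35.3 in females and 32.5 and 8.08 in males (limma adjusted p = 0.111), from a region at -7400 bp from its start that another gene shares. Plvap, a protein of endothelial fenestrae, had 32.5 and 34.1 against 18.7 and 8.81 (limma adjusted p = 0.119). Its regions were also shared, and the nearest lay 15033 bp from its start. Cd34, a sialomucin of endothelium and of adipose progenitors, had 24.0 and 29.6 against 14.1 and 7.34 at its start (limma adjusted p = 0.123). Among the best known endothelial markers Tie1, a receptor of the angiopoietin system, had 27.0 and 18.1 against 9.90 and 12.5, while Cdh5, Kdr, Cldn5 and Emcn had no row analysed here. The sexes overlapped in the 4 genes at the upper end of the list. Thbd (thrombomodulin) had 26.0 and 15.6 in females and 18.7 and 14.3 in males, and Gata2, a transcription factor gene, had 26.0 and 17.3 against 12.7 and 17.6. The other two, Robo4 and Sox7, lay 0.35 and 0.25 above all genes.

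Of 29 mural genes 11 had a row and none was called. Their median lay 0.13 below that of all genes, 7 of the 11 had both males below both females (76.4% of all genes), and 4 had a region within 1000 bp of the start (69.7% of all genes). Ednra, the endothelin receptor of smooth muscle, had 24.0 and 21.4 in females and 7.07 and 8.08 in males at its start (limma adjusted p = 0.110), again with the males close together. Tpm1, a tropomyosin, had 63.0 and 49.3 against 35.3 and 16.9 (limma adjusted p = 0.133). Myh11, the smooth muscle myosin heavy chain, had 36 and 21.4 against 17.0 and 8.08, from a region 32272 bp inside the gene (limma adjusted p = 0.137). At the other end, Vtn (vitronectin) had 30 and 38.6 against 19.8 and 36.7, with overlapping sexes, and Cald1 (caldesmon) lay 0.10 above all genes. The region of Vtn lay 13136 bp from its start and was shared with other genes. Acta2, Tagln, Rgs5, Kcnj8 and Notch3 had no row analysed here.

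The pathway lists gave no calls either (limma, adjusted over all genes). In the VEGF list 7 of 14 genes had a row, with a median 0.03 above all genes and both males below both females in each of the 7 (76.4% of all genes). Hif1a and Epas1, the hypoxia-inducible factors, had 62.0 and 65.8 against 41.0 and 24.97, and 51.7 and 43.3 against 36.1 and 14.4 (limma adjusted p = 0.157 and 0.158). The region of Hif1a lay at its start and was shared with another gene. In the endoglin and BMP/TGF-beta list 15 of 18 had a row, with a median 0.08 below all genes. Tgfbr3, the co-receptor betaglycan and a structural relative of endoglin, had 48.0 and 46.03 against 21.9 and 7.34 at its start (log2 difference -1.32, limma adjusted p = 0.0633). Acvrl1, the ALK1 receptor that works with endoglin, had 82.0 and 58.4 against 37.5 and 20.6 (log2 difference -1.08, limma adjusted p = 0.110). The region of Acvrl1 lay 17127 bp from its start. Smad1, which relays BMP signals, had 56.0 and 33.7 against 23.3 and 16.2 (limma adjusted p = 0.135). Other members of this list lay above all genes: Smad5 at 0.55, Smad4 at 0.53, Id1 at 0.25, Id3 at 0.17 and Id2 at 0.12. Smad4, the common partner of the receptor-activated Smads, had 37.0 and 37.0 in females and 31.8 and 35.98 in males.

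In the PDGF list 8 of 12 genes had a row, each with a region within 1000 bp of the start, with a median 0.02 above all genes. Pdgfrb had the lowest difference of the 8, and Ptpn11, a phosphatase that binds the receptor, had the highest at 0.53 relative to all genes. Pdgfa, Pdgfb and Pdgfra had no row analysed here. In the list of SRF and the smooth muscle cytoskeleton 15 genes had a row, with a median 0.02 below all genes. Its 22 entries name Mkl1 also as Mrtfa and Mkl2 also as Mrtfb. Acta2, Mylk, Myocd, Tagln and Tpm2 of this list had no row analysed here. Srf itself had 52.3 and 43.6 against 32.0 and 14.9 (limma adjusted p = 0.145), and Vcl (vinculin), 0.38 above all genes, had 55.5 and 35.8 against 32.9 and 39.7. In the angiopoietin and Notch list 6 of 15 had a row, with a median at that of all genes, and Notch4, an endothelial Notch receptor, had 33.5 and 30.8 against 15.6 and 10.6 (limma adjusted p = 0.122). Hey2, a Notch target, lay 0.40 above all genes, with overlapping sexes.

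Marker lists of the vessel wall summed to less in both males than in both females, as did those of other cell types and the heights of all genes. The mean over all genes in males was 0.574 of that in females. The same ratio of sums was 0.590 for endothelial and 0.585 for smooth muscle markers, close to that of all genes, and 0.323 for pericyte markers. The summed heights of the 2 of 6 pericyte markers with a row (Pdgfrb and Cspg4) were 42.3 to 59.0 in females and 14.0 to 18.7 in males. Those of 4 of 8 endothelial markers were 83.8 to 111 and 48.5 to 66.4, and those of 4 of 6 smooth muscle markers 92.6 to 125 and 51.4 to 75.9. Outside the vessels, 5 of 8 adipocyte markers summed to 162 to 188 in females and 59.8 to 93.7 in males, and 2 of 8 mammary epithelial markers to 40.3 to 45.0 and 3.67 to 11.3. Of 3 of 8 progenitor markers the sums were 56.7 to 72.0 and 32.5 to 35.2, of 4 of 6 Schwann cell markers 71.5 to 83.0 and 23.5 to 43.8, of 1 of 6 macrophage markers 50.1 to 54.0 and 18.8 to 30.4, and of 1 of 6 skeletal muscle markers 50.1 to 70.0 and 17.6 to 24.0. Among all these markers, St14 (mammary epithelium, limma adjusted p = 0.0283) and Erbb3 (Schwann cells, limma adjusted p = 0.0436) were called lower in males, as were 0.592% of all genes. Neither passed with libraries centred on their medians (limma adjusted p = 0.614 and 0.609). Male heights were 2.12 and 1.47 for St14 and 5.655 and 3.67 for Erbb3, below the 9 added before the logarithm. Each had a called peak in female 1 only. The ratio of male to female sums was 0.439 for adipocyte, 0.526 for progenitor, 0.436 for Schwann cell and 0.176 for mammary epithelial markers. It was 0.347 for the skeletal muscle marker, near that of the pericyte markers, and 0.473 for the macrophage marker. The part of cell make-up in the differences of the 7 genes was not tested. Adiponectin (Adipoq), perilipin (Plin1) and leptin (Lep), which define adipocytes, had no row analysed here, and the markers with a row were Cidec, Lipe, Cfd, Pparg and Retn. All regions of Cidec, Lipe, Cfd and Retn were shared with other genes.

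Genes with the most similar pattern were found by the root mean square difference in log2(height + 9) over the 4 libraries, among protein-coding genes with other regions. For Pdgfrb they were Irx2 (0.056) and Fam115c (0.070), for Eng Tmem119 and Dip2b (0.046 each), and for Cspg4 Rassf10 (0.057) and Snw1 (0.082). For Pecam1 they were BC026585 (0.021) and G6pc (0.044), for Flt1 Kif21a (0.077) and Greb1l (0.087), for Cnn1 Pomt1 (0.040) and Pafah1b1 (0.045), and for Lmod1 Cryz (0.043) and Zbtb45 (0.073). With 4 libraries such likeness is common: from 73 genes for Lmod1 to 1167 for Cnn1 lay within 0.2 of the member.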

How the data were processed

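The authors deposited a table of genes and a file of peak tracks. The submitters' processing notes name BWA, MACS2 2.1.0 and the mm10 build. For duplicates and a Tn5 shift of the reads, no step is named in the sources used here. Per the file headers, peaks were called per library and merged over libraries. The deposited signal is a scaled coverage height per gene and library, the mean over linked regions. The deposited numbers of linked intervals and regions and the 0 or 1 flags for peaks were also used, and 0 per-library columns were left out.

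Here, log2(height + 9) was compared with limma 3.58.1 in R 4.3.3 (trend, no block; the pseudocount 9 is the next whole number above 8.077, which 5% of non-zero heights lie below; a gene needed non-zero heights in 2 or more libraries), over all 11993 genes; the fit was tested on simulated data. Heights of single regions came from genes with 1 region or by subtraction. Peaks were matched by an overlap of at least 1 bp. Sequences and starts are from RefSeq (GRCm38.p6); 5 of 7 genes matched its promoter table. Python 3.11.15 and pandas 2.3.3 were used. The members, lists and the rule for named genes (the 7, genes sharing their regions, up to 4 list members with the smallest p, and 2 genes most like each member) were chosen with earlier results of these data known. Further list genes (Tie1, Ptpn11, Smtn and those at the upper end of each list) were named after their values were seen. Alternatives covered pseudocounts 1 and 36, filters, scaling, a replicate block, variance settings, shared regions and each library left out.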

Additional observations from a re-analysis of the deposited data

How the results depend on the processing

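None of the 7 genes passed limma in the main analysis (71 genes lower and 0 higher in males), and Eng, Pdgfrb and Cspg4 kept a negative difference in all alternatives run. With the replicate number as a block, 3 members passed (Eng, Pdgfrb and Cspg4), among 6918 genes lower and 7 higher. The labels do not say that numbers pair libraries. Gene by gene, same-numbered libraries did not deviate together (r = 0.017 over genes). That value cannot show a shift common to all genes. Replicate 1 had the higher mean height in both sexes (40.9 against 32.5 in females, 25.3 against 16.8 in males). Whether the numbers mark pairs or batches was not tested. With a library left out, genes called lower ranged from 0 (without male 2, 986 at unadjusted p under 0.05) to 6391 (without male 1). Genes called higher ranged from 0 to 28, and members called from 0 to 4 (without male 1, where Cnn1 passed too). Each of these fits left 1 library in 1 sex and covered all 11993 genes. All remaining males lay below all remaining females in 5 members without female 1 (78.4% of all genes) and 7 without female 2 (92.8%). That order held in 6 members without male 1 (91.6% of all genes) and 6 without male 2 (80.6%). Genes called lower numbered 0 with genes under the 25th percentile of mean height left out (a filter that kept Cnn1 alone of the members; 2736 at an unadjusted p under 0.05), 0 with centred libraries (436), 0 with quantile normalization (426), 416 without trend and 4 on unscaled tags, a setting added after seeing the data. With 1 row per region, also added, 1 member region was called, the downstream one of Cspg4. Members with both males below both females numbered 3 with centred libraries, 3 with quantile normalization and 4 on unscaled tags, orders that 21.7%, 20.6% and 50.7% of all genes had, against 76.4% in the main analysis.

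Differences turned positive with centred libraries for Pecam1 (0.14), Flt1 (0.062), Cnn1 (0.11) and Lmod1 (0.53), and with quantile normalization for Pecam1 (0.088), Flt1 (0.036), Cnn1 (0.10) and Lmod1 (0.50). That of Lmod1 was also positive on unscaled tags (0.11), and ranged from -0.26 (without male 2) to 0.080 (without male 1) with a library left out. Of the 9 member regions, 8 had a peak in a female library and 1 in a male library; with peaks at or above the median summit of their library, these were 1 and 0. With a library left out they ranged from 4 (without female 1) to 8 and from 0 (without male 2) to 1. The causes were not tested.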
